A study of Mus musculus with 6 samples.

Results

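The receptors for glutamate, GABA and glycine carry most of the fast signalling between neurons of the retina. Ionotropic receptors are ion channels built from several subunits, and metabotropic receptors act through G proteins. AMPA, kainate and NMDA channels pass cations when they bind glutamate, while GABA-A and glycine channels pass chloride. Many of these channels change their subunits as neurons mature. The known changes include Grin2b giving way to Grin2a in NMDA receptors and Glra2 giving way to Glra1 in glycine receptors. The chloride exporter Slc12a5 gains on the importer Slc12a2 over the same period, which sets the direction of the GABA-A and glycine currents. Retinal ganglion cells (RGCs), the neurons whose axons form the optic nerve, receive glutamate from bipolar cells and GABA and glycine from amacrine cells.

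The receptor genes were all those whose symbols name a receptor of these families, with no gene picked by its values, and they were 50 of the 43346 Ensembl genes in the tables. They comprised 4 AMPA, 5 kainate, 7 NMDA and 2 delta receptor genes, 8 metabotropic glutamate receptor genes, 19 GABA-A receptor genes and 5 glycine receptor genes. RNA-seq was done on RGCs of C57BL/6 mice of both sexes, immunopanned with an antibody to CD90.1 and cultured in Full Sato medium with forskolin, BDNF and CNTF. The 3 groups received an AAV encoding EGFP (control), an AAV encoding Sox11 with EGFP after an IRES (Sox11), or the same vector with Sox11 in which lysine 91 is replaced by alanine (Sox11K91A), with 2 replicates each. Sox11 is a transcription factor of developing neurons, and the K91A change removes a site for the attachment of SUMO. All 6 libraries came from wells of 250000 cells that were given 1.5 μl of virus 4 h after plating, at 100000 vg per cell, and RNA was taken 72 h after plating. The age of the RGCs was embryonic day 18 in the extraction protocol, postnatal day 2 in the growth protocol and postnatal day 0 in the names of the tables. No source stated that replicates came from separate cultures or animals, so the p-values below measure only the spread between these libraries, which may in part be technical.

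Libraries held between 27521981 and 37061718 counts. Sox11 counts, which include those from the virus, were 6544 and 12786 in control, 252161 and 483694 with Sox11 and 385765 and 204868 with Sox11K91A. Both Sox11 groups thus stood apart from control as labelled, but these counts cannot tell Sox11 from Sox11K91A. All 11 RGC markers examined had more than 3 counts in every library, and their summed level was 9110 and 8270 TPM (a level corrected for gene length and scaled to the same total in each library) in control, 6660 and 4160 with Sox11, and 5570 and 6780 with Sox11K91A. Nefl and Sncg made up most of this sum in every library. With Sox11, Nefl, Thy1, Slc17a6 and Rbpms2 were called lower and the other 7 markers, among them Rbpms, Pou4f1, Pou4f2 and Isl1, were not called. With Sox11K91A only Slc17a6 was called lower. The part of these markers in the results below was not tested. On the second principal component, with 18.2% of the variance, control replicate 2 and Sox11 replicate 2 lay at one end and the 4 other libraries at the other. These 2 libraries also held fewer Xist counts (3697 and 8413, against 11191 to 16303 in the others), more counts of the Y-linked genes Ddx3y (1157 and 991, against 446 to 522) and Eif2s3y (969 and 1124, against 214 to 406), and less of the amacrine markers, whose summed level over 11 genes was 42.6 and 28.7 TPM there and 59.9 to 126 TPM in the other 4. Replicates of control and of Sox11 thus differed in transcripts of female and of male cells, and the part of this in the results was not tested. In whole cultures, fewer cells of a type and less RNA per cell cannot be told apart.

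Promoters of 4 receptor genes called below, 1 each from the NMDA, AMPA, GABA-A and glycine families, are shown for the letters of SOX binding sites. These genes were picked after their values were seen. SOX proteins are known to bind short sequences close to ACAAAG or ACAAT, and Sox11 is one of them. Each sequence is the 250 bases before the RefSeq start on GRCm38.p6, written 5′ to 3′ on the strand of the gene (the minus strand for all 4), with matches to ACAAAG or ACAAT on either strand in capitals. Grin1 lies at chr2:25319188-25319437, Gria2 at chr3:80802836-80803085, Gabra5 at chr7:57510060-57510309 and Glra2 at chrX:165327394-165327643.
Grin1: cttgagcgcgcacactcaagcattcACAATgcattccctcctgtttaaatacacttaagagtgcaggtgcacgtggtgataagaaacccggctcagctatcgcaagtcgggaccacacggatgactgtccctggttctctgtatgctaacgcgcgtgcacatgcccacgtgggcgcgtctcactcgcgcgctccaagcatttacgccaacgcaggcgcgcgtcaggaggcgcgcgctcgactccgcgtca
Gria2: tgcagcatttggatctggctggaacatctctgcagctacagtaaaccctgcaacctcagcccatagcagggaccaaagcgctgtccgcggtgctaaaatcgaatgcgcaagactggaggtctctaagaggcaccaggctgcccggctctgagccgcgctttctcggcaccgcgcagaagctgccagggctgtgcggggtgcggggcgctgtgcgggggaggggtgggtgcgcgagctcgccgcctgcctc
Gabra5: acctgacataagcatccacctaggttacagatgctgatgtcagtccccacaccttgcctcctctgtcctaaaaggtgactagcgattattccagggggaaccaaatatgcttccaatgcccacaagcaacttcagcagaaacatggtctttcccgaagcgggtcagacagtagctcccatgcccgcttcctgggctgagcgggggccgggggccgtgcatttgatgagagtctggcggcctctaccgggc
Glra2: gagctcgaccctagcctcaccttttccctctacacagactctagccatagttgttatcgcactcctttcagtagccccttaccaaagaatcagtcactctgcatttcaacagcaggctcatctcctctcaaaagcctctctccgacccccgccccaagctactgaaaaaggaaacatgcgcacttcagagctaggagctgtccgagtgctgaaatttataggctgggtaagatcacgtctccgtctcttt
Grin1 held 1 match to ACAAT, and the other 3 windows held neither motif. Of the 50 receptor genes, 34 matched a RefSeq promoter, with 41 promoters in all. ACAAAG was present in 2 of the 41 (4.88%) against 16.5% of all 32851 mouse promoters in the same window, and ACAAT in 5 of the 41 (12.2%) against 27.7%. Among the 16 receptor genes with a promoter that were called in either comparison with control, none held ACAAAG, and Gabrb1 and Grin1 held ACAAT. These matches describe letters in a short window and say nothing of binding.

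In control RGCs, the receptor genes with the highest levels were Gabra2 at 138 ± 40.2 TPM (mean ± SD, n = 2), Grik5 at 119 ± 1.96 and Grin1 at 111 ± 31.1, and the replicates of each overlapped with those of the other two. They encode a GABA-A alpha subunit, a high-affinity kainate subunit and the obligate NMDA subunit. The most abundant AMPA genes were Gria1 at 54.7 ± 4.34 TPM, Gria2 at 45.3 ± 7.57 and Gria4 at 42.2 ± 7.81. For glycine receptors, the beta subunit Glrb stood at 50.1 ± 0.82 TPM and the alpha subunit Glra2 at 15.9 ± 1.02. Among metabotropic receptors Grm8 reached 17.2 ± 2.79 TPM, Grm7 16.2 ± 6.48 and Grm4 5.33 ± 1.13, and the delta receptor Grid1 reached 12.6 ± 4.49. Gabra6, Gabrp, Gabrr1, Gabrr3, Glra4 and Grm6 held at most 4 counts in any library and did not pass the filter on low counts. Grm6 is the receptor of ON bipolar cells, and another bipolar marker, Vsx1, had at most 3 counts in every library.

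**Figure D1:**
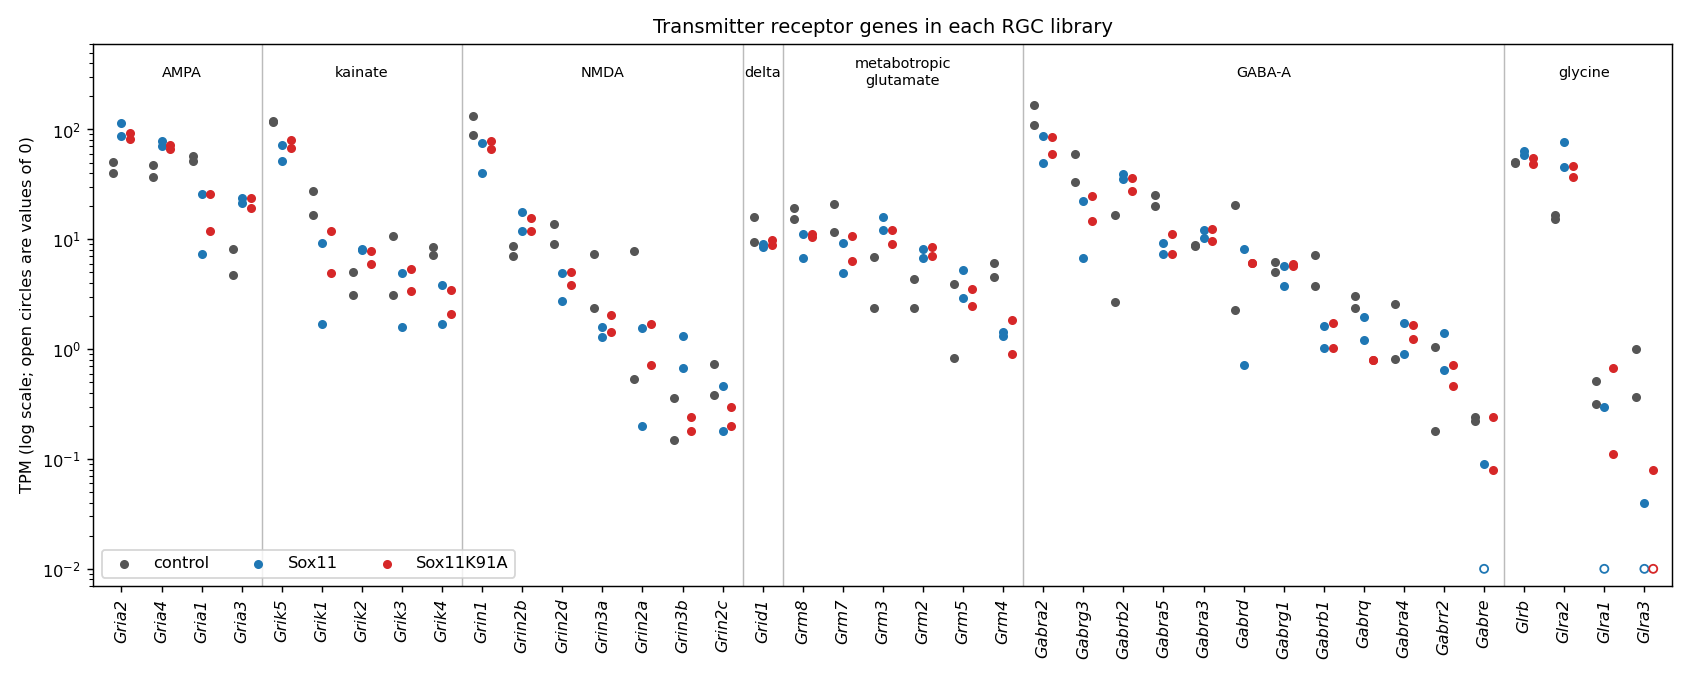
Levels of 39 of the 44 receptor genes that passed the count filter, in TPM on a log axis, with 1 point for each library and genes grouped by family. Gria2, Gria3, Grin2b and Glra2 lie higher in all 4 Sox11 and Sox11K91A libraries than in both control libraries, while Gria1, Grik5, Grin2d and Gabra5 lie lower.

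With Sox11, the receptor genes changed in both directions. AMPA subunits Gria2, Gria3 and Gria4, the NMDA subunit Grin2b, the GABA-A subunit Gabrb2 and the glycine subunit Glra2 rose, and Gria1, Grin1, Grin2d, Gabra5 and Gabrb1 fell. A gene was called when its adjusted p in limma-voom was under 0.05 and its fold change above 1.2, with all 6 libraries in 1 fit and Benjamini-Hochberg adjustment over the 15747 genes tested. Of the 44 receptor genes tested, 22 were called (50%), where 20.1% of all genes tested were. They were 10 higher (22.7%, background 9.96%) and 12 lower (27.3%, background 10.2%). The median log2 fold change of the 44 was -0.92 against 0.0086 for all genes, and the median absolute log2 fold change was 1.15 against 0.46. The median moved to -0.30 without Sox11 replicate 2 and to -0.44 without control replicate 1, and without the latter 12 receptor genes were called higher and 6 lower. Without both libraries that stood apart, limma-voom called 15 receptor genes (6 higher and 9 lower), with the spread taken from Sox11K91A alone. Without Sox11 replicate 2 alone it called none of the receptor genes and none of all genes tested, and 21 receptor genes and 3347 of all genes had an unadjusted p under 0.05. Without control replicate 2 it called 13.

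Sox11K91A changed many of the same receptors relative to the same control libraries. It called 13 of 44 receptor genes (29.5%), where 10.6% of all genes were called, with 7 higher (15.9%, background 5.81%) and 6 lower (13.6%, background 4.81%). Both viruses were compared with the same 2 control libraries, so their results are not independent. Of the 23 genes called with either virus, 7 were called higher with both, among them Gria2, Gria3, Gria4, Grin2b, Glra2 and Grm2, 5 were called lower with both, among them Gabra5, Gabrb1, Grik4 and Grm4, 10 were called only with Sox11 and Gabrq only with Sox11K91A. All 23 had a log2 fold change of the same sign with the other virus. Where a gene was called with 1 virus and not the other, the difference between viruses did not pass the test. Without both libraries that stood apart, 1 control library was left, and the median log2 fold change of the 44 with Sox11K91A was -0.83. That of all genes was 0.011, and with all 6 libraries these medians were -0.58 and 0.017. Without control replicate 2 alone, limma-voom called none of the receptor genes and none of all genes (26 receptor genes and 4753 of all genes at an unadjusted p under 0.05), without Sox11K91A replicate 1 none of the receptor genes (16 at an unadjusted p under 0.05), and without Sox11K91A replicate 2 it called 1.

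The 2 viruses were then compared directly. No receptor gene and no other gene passed between Sox11K91A and Sox11 in limma-voom (0% of all genes), with an adjusted p of 1 for all 44 and an unadjusted p under 0.05 for 108 of all genes. Only Grin3b, a glycine-binding NMDA subunit, had an unadjusted p under 0.05, and edgeR and DESeq2 also called none of the 44. DESeq2 called 2 other genes. Grin3b had 20.1 and 30.4 counts with Sox11 and 6.1 and 8.2 with Sox11K91A, and 32.1% of its exonic bases lie in Tmem259 on the other strand. The width of the intervals differed between genes. The 95% interval of the log2 difference (Sox11K91A minus Sox11) was -0.57 to 0.23 for Gria2, but -0.88 to 1.79 for Gria1 and -3.10 to 5.35 for Grin2a.

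**Figure D2:**
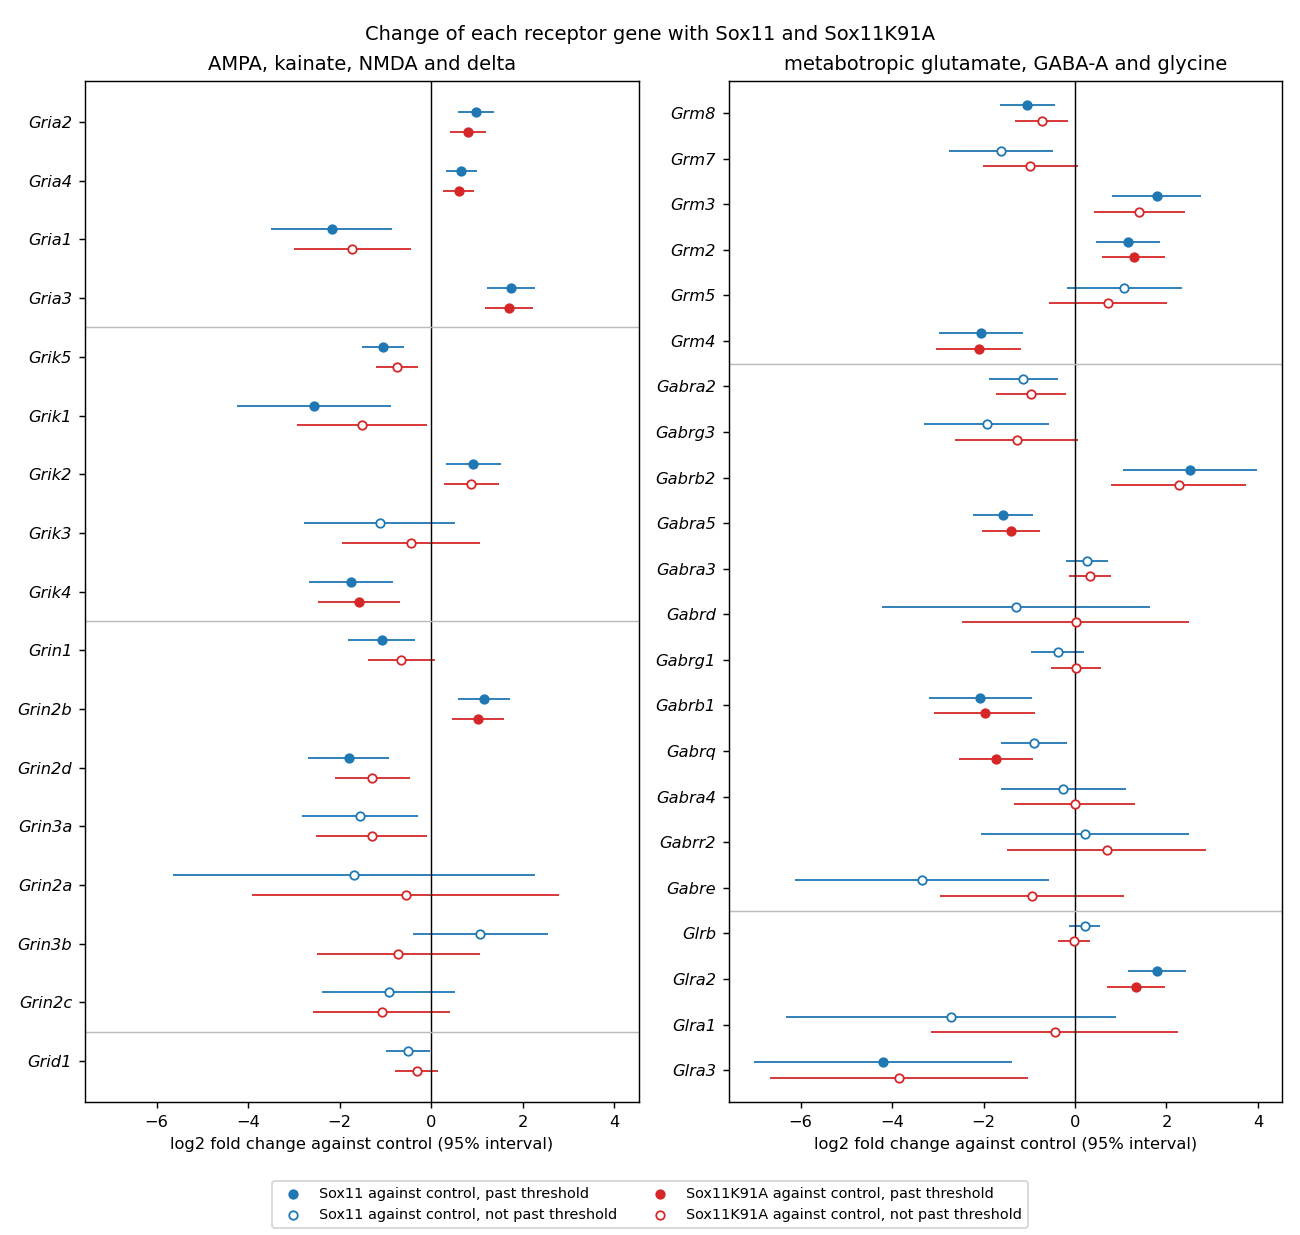
Log2 fold change against control for 39 of the 44 receptor genes, with the 95% interval from limma-voom and filled points for called genes. Blue is Sox11 and red is Sox11K91A, and the genes called higher with Sox11 range from Gria4 (0.66) to Gabrb2 (2.52).

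AMPA receptors carry fast excitation, and their 4 genes were all called with Sox11. Gria2, whose edited subunit makes the channel impermeable to calcium, was at 133 and 137 CPM (counts scaled by library size, used for the change of a gene between libraries) in control, 232 and 305 with Sox11 and 249.6 and 224 with Sox11K91A. All 4 virus libraries lay above both controls, with a log2 fold change of 0.98 (SE 0.17, adjusted p = 0.0162) with Sox11 and 0.81 (SE 0.17, adjusted p = 0.033) with Sox11K91A. Gria3 rose more than any other AMPA gene, from 19.5 and 12.8 CPM to 49.4 and 53.9 with Sox11 and 55.2 and 46.6 with Sox11K91A, with log2 fold changes of 1.74 (SE 0.22, adjusted p = 0.0115) and 1.71 (SE 0.22, adjusted p = 0.0155). Its groups were also fully apart. Gria4 went from 108 and 89.7 CPM to 154 and 157 and 154 and 144, a smaller rise of 0.66 (adjusted p = 0.0263) and 0.60 (adjusted p = 0.046) on the log2 scale. Gria1, whose subunit is added to synapses during plasticity, fell with Sox11.

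Gria1 was at 137 and 168 CPM in control, 62.2 and 18.9 with Sox11 and 31.7 and 67.6 with Sox11K91A. Its control libraries were the 2 highest, and its log2 fold change was -2.18 (SE 0.56, adjusted p = 0.038) with Sox11 and -1.72 (SE 0.54, adjusted p = 0.0863) with Sox11K91A, where it was not called. The log2 fold change with Sox11 was -3.02 without Sox11 replicate 1 and -1.28 without Sox11 replicate 2. On the TPM scale, Gria1 was 37.1% ± 6.27 (SD, n = 2) of the AMPA sum in control, 7.84% ± 6.49 with Sox11 and 9.65% ± 5.31 with Sox11K91A. Gria2 took 30.4% ± 2.35, 46.9% ± 6.04 and 44.2% ± 2.72 of the same sum, and Gria3 took 4.3% ± 1.23, 10.6% ± 0.145 and 10.9% ± 1.24. The AMPA sum itself was 158 and 139 TPM in control, 206 and 224 with Sox11, and 201 and 194 with Sox11K91A. With 2 libraries against 2, an exact permutation test of a share or a sum cannot give a two-sided p below 0.333, so these shares are given as descriptions.

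Of the kainate receptor genes, which encode slower glutamate channels, 3 fell and 1 rose with Sox11. Grik5 was at 221 and 237 CPM in control, 130.3 and 93.0 with Sox11 and 126 and 148 with Sox11K91A, a log2 fold change of -1.05 (adjusted p = 0.0179) and -0.75 (adjusted p = 0.0549). Grik4, the other high-affinity subunit, was at 14.2 and 19.6 CPM in control, 7.61 and 3.53 with Sox11 and 4.59 and 7.1 with Sox11K91A and was called lower with both viruses (-1.74, adjusted p = 0.0269, and -1.58, adjusted p = 0.0446). Grik1, a subunit known from OFF bipolar cells as well as other neurons, was at 33.9 and 22.4 CPM in control, 11.5 and 2.02 with Sox11 and 6.24 and 14.9 with Sox11K91A, with log2 fold changes of -2.57 (adjusted p = 0.0462) and -1.51 (adjusted p = 0.144). Without Sox11 replicate 1 the log2 fold change of Grik1 with Sox11 was -3.75 and without Sox11 replicate 2 it was -1.24, and that of Grik4 without the latter was -1.15. All 3 genes had every virus library below both controls, whereas Grik3, at 48.1 and 15.1 CPM in control, 21.5 and 6.97 with Sox11 and 15.0 and 24.5 with Sox11K91A, overlapped and was not called (adjusted p = 0.278 and 0.69). The other 7 bipolar markers examined stood at 1.43 TPM or lower in every library. The kainate sum was 171 and 149 TPM in control, 97.7 and 65.0 with Sox11, and 86.2 and 106 with Sox11K91A.

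Grik2, a principal kainate subunit, went the other way, from 10.7 and 6.85 CPM in control to 15.5 and 16.2 with Sox11 (0.92 on the log2 scale, adjusted p = 0.045) and 16.9 and 13.8 with Sox11K91A (0.88, adjusted p = 0.071). Its share of the kainate sum was 2.52% ± 0.613 in control and 10.3% ± 3.11 with Sox11, while Grik5 held 74.7% ± 6.03 and 76.6% ± 4.47. Neto1 and Neto2 encode auxiliary subunits of kainate receptors, and they also parted. Neto1 was at 20.6 and 11.4 CPM in control, 2.11 and 1.75 with Sox11 and 0.652 and 2.06 with Sox11K91A, with log2 fold changes of -2.95 (adjusted p = 0.0174) and -3.69 (adjusted p = 0.0224). Neto2 was at 39.0 and 48.9 CPM in control, 76.8 and 102 with Sox11 and 77.2 and 74.5 with Sox11K91A, with 1.01 (adjusted p = 0.0182) and 0.79 (adjusted p = 0.0452).

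In NMDA receptors, which need glutamate and a co-agonist, the obligate subunit fell and Grin2b rose with Sox11. Grin1 was at 254 and 184 CPM in control, 139 and 75.3 with Sox11 and 125 and 152 with Sox11K91A. The control libraries were the 2 highest, with a log2 fold change of -1.08 (SE 0.31, adjusted p = 0.049) with Sox11, just inside the threshold, and -0.65 (adjusted p = 0.203) with Sox11K91A. Of its exonic bases, 13.5% lie in Grin1os on the other strand, and whether counting used strand is not given in the sources used here. Grin2b, the juvenile glutamate-binding subunit, was at 68.3 and 41.9 CPM in control, 111 and 128 with Sox11 and 117 and 100 with Sox11K91A. It was called higher with both viruses, by 1.16 (SE 0.24, adjusted p = 0.0229) and 1.02 (SE 0.24, adjusted p = 0.0431) on the log2 scale.

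Grin2d, a subunit that is also prominent early in development, fell with Sox11. It was at 29.0 and 22.2 CPM in control, 11.7 and 4.68 with Sox11 and 9.53 and 11.2 with Sox11K91A, with log2 fold changes of -1.80 (SE 0.38, adjusted p = 0.0235) and -1.28 (SE 0.35, adjusted p = 0.0607). Without Sox11 replicate 1 the log2 fold change with Sox11 was -2.44, and without Sox11 replicate 2 it was -1.10. Grin3a, which lowers calcium entry in young neurons, was at 24.1 and 9.39 CPM in control, 5.71 and 4.25 with Sox11 and 4.72 and 7.3 with Sox11K91A and was not called (adjusted p = 0.0812 and 0.143). On the TPM scale Grin2b was 34.9% ± 9.38 of the Grin2 sum in control, 74.1% ± 15.4 with Sox11 and 69.7% ± 9.21 with Sox11K91A, and Grin2d was 48.7% ± 6.3, 19.7% ± 9.17 and 22.8% ± 5.61. The length that RSEM gave Grin2b varied 1.73-fold between libraries, which moves its TPM but not its CPM. Over counts, the Grin2b share was 60.9% in control, 91.6% with Sox11 and 88.7% with Sox11K91A.

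Grin2a, the mature counterpart of Grin2b, was not called, and its groups overlapped. It was at 18.2 and 1.04 CPM in control, 3.57 and 0.422 with Sox11 and 1.65 and 4.01 with Sox11K91A, with control replicate 1 highest and control replicate 2 and Sox11 replicate 2 the 2 lowest. The log2 fold change was -1.69 (SE 1.67, adjusted p = 0.496) with Sox11 and -0.56 (SE 1.41, adjusted p = 0.83) with Sox11K91A. Gabrd, the GABA-A delta subunit of extrasynaptic receptors, was low in the same libraries, at 16.8 and 2.13 CPM in control, 6.88 and 0.784 with Sox11 and 5.49 and 5.28 with Sox11K91A. The amacrine markers Gad1 (36.2 and 2.83 CPM in control, 17.5 and 2.23 with Sox11 and 19.7 and 17.2 with Sox11K91A) and Slc32a1 (14.6 and 1.22 CPM in control, 7.68 and 2.59 with Sox11 and 9.09 and 8.57 with Sox11K91A) were low in control replicate 2 and Sox11 replicate 2 as well. Of the 11 amacrine markers, 6 were lower in both of these libraries than in the other 4, and Slc6a5 and Ptf1a, further markers of amacrine cells, were at or near 0 in all 6 libraries. The part of amacrine cells in Grin2a and Gabrd was not tested.

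**Figure D3:**
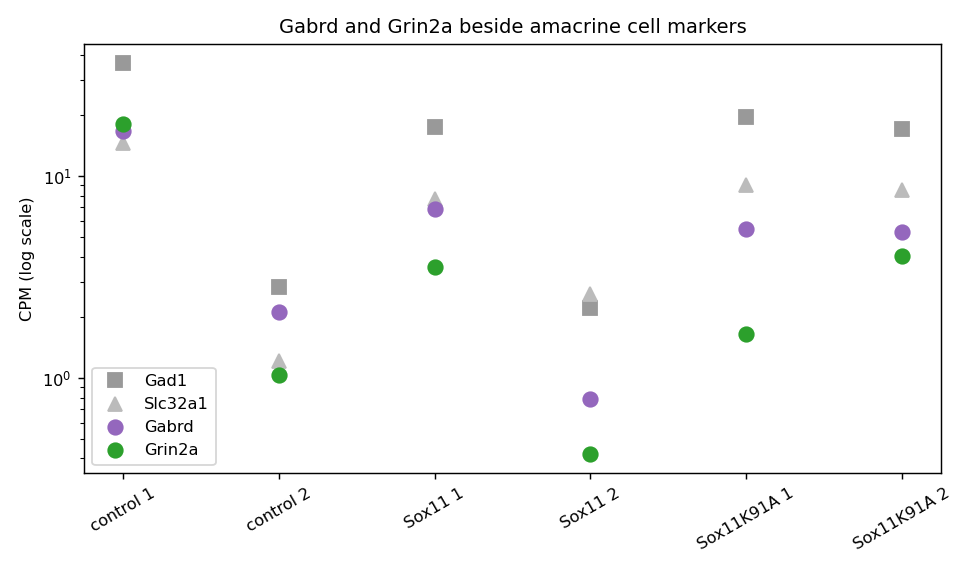
CPM on a log axis of Gabrd, Grin2a and the amacrine cell markers Gad1 and Slc32a1 in each of the 6 libraries. All 4 genes are lower in control replicate 2 and Sox11 replicate 2 than in the other 4 libraries. The amacrine markers Gad2 and Slc6a9, not drawn, were not low in control replicate 2.

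GABA-A receptors, which are usually built from alpha, beta and gamma subunits, had called alpha and beta genes. Gabra5, an alpha subunit known from young and extrasynaptic receptors, was at 25.1 and 34.3 CPM in control, 11.4 and 8.9 with Sox11 and 9.19 and 14.0 with Sox11K91A. It was called lower with both viruses, at -1.57 (SE 0.28, adjusted p = 0.0167) and -1.39 (SE 0.27, adjusted p = 0.0285) on the log2 scale. Gabra2, the most abundant alpha gene, was at 184 and 132 CPM in control, 95.6 and 53.6 with Sox11 and 66.1 and 96.2 with Sox11K91A. Both controls were above all virus libraries, but it was not called (adjusted p = 0.0504 and 0.0964).

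The alpha subunit Gabra3 was at 14.2 and 16 CPM in control, 19.8 and 16.9 with Sox11 and 21.1 and 17.1 with Sox11K91A, with log2 fold changes of 0.26 (adjusted p = 0.364) and 0.33 (adjusted p = 0.3). Among beta subunits, Gabrb1 fell from 10.6 and 5.94 CPM to 2.37 and 1.45 with Sox11 and 1.49 and 2.57 with Sox11K91A, at -2.07 (adjusted p = 0.0288) and -1.98 (adjusted p = 0.0431) on the log2 scale. Gabrb2, another beta subunit, was at 31.7 and 5.66 CPM in control, 66.2 and 73.9 with Sox11 and 69.2 and 50.3 with Sox11K91A. It was called higher with Sox11 (2.52, SE 0.62, adjusted p = 0.0344) and not with Sox11K91A (2.27, SE 0.62, adjusted p = 0.0616), and its control replicates themselves lay far apart. Without control replicate 1 its log2 fold change was 3.63 with Sox11 and 3.39 with Sox11K91A, and without control replicate 2 it was 1.14 and 0.90.

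Gamma subunits anchor GABA-A receptors at synapses. Gabrg3 was at 232 and 135 CPM in control, 88.0 and 25.3 with Sox11 and 56.2 and 95.9 with Sox11K91A, every virus library below both controls, but was not called (adjusted p = 0.0567 and 0.183). Gabrg1 was at 14.4 and 12.9 CPM in control, 13.1 and 8.48 with Sox11 and 13.4 and 14.1 with Sox11K91A, with overlapping groups. Gabrq, the theta subunit, was at 6.26 and 5.76 CPM in control, 2.48 and 3.98 with Sox11 and 1.68 and 1.92 with Sox11K91A, and was called with Sox11K91A alone (-1.73, adjusted p = 0.0297, against -0.90, adjusted p = 0.0749). The interval of its difference between the viruses was -1.71 to 0.06 on the log2 scale.

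Many GABA-A genes lie in clusters in the mouse genome (GRCm38). On chromosome 5, Gabrb1 (71658113 to 72149037) fell and the neighbouring Gabra4 (71569749 to 71658308) was not called (adjusted p = 0.778 with Sox11). Gabra2 (70957597 to 71095849) and Gabrg1 (70751047 to 70842617) lie near them and were not called either. Every virus library of Gabra2 was below both controls, while the groups of Gabrg1 overlapped. The summed GABA-A level was 488 and 325 TPM in control, 407 and 384 with Sox11, and 357 and 377 with Sox11K91A, with overlapping groups.

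**Figure D4:**
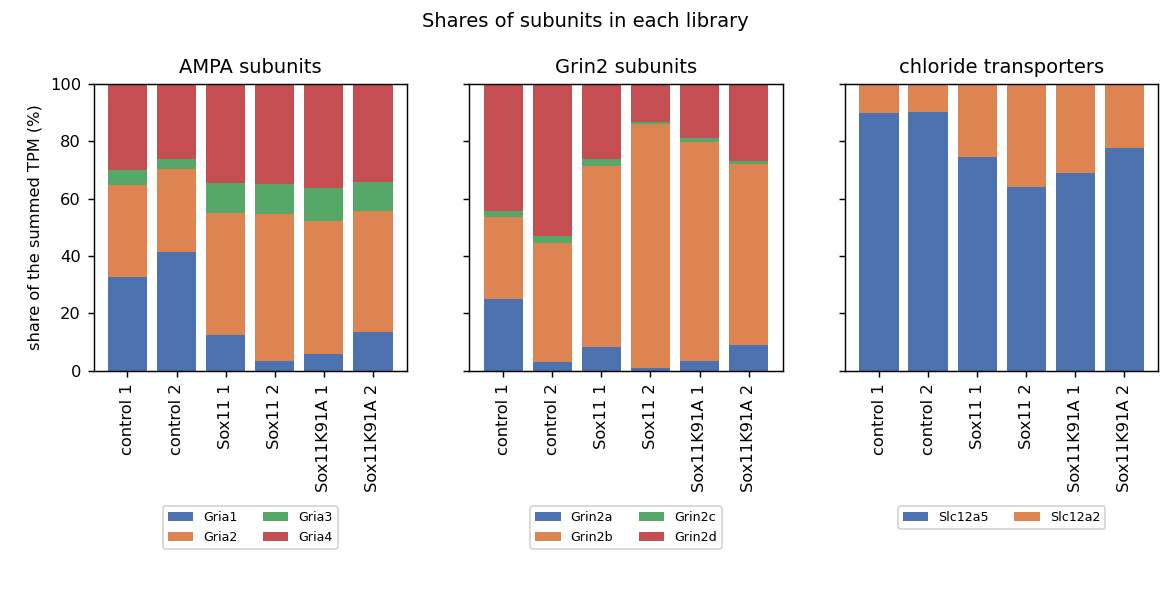
Share of each subunit in the summed TPM of its class in each library, for AMPA and Grin2 subunits and for the chloride transporters Slc12a5 and Slc12a2. Gria1, Grin2d and Slc12a5 take a smaller share in all 4 Sox11 and Sox11K91A libraries than in both control libraries.

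Glycine receptors are built from alpha subunits and Glrb. Glra2, the alpha subunit known from immature neurons and from the retina, was at 24.8 and 24.8 CPM in control, 66.7 and 111 with Sox11 and 70.2 and 56.2 with Sox11K91A. All virus libraries were above both controls, which were nearly equal, with log2 fold changes of 1.80 (SE 0.27, adjusted p = 0.0128) and 1.34 (SE 0.27, adjusted p = 0.0303). Glra1, its mature counterpart, held 9 and 20 counts in control, 9 and 0 with Sox11 and 4 and 22 with Sox11K91A, and was not called (adjusted p = 0.239 and 0.832). Glra3 held 24 and 13 counts in control, 1 and 0 with Sox11 and 0 and 2 with Sox11K91A. It was called lower with Sox11 (adjusted p = 0.0492) and not with Sox11K91A (adjusted p = 0.0815), and no fold is given, since the virus libraries held at most 3 counts. Glrb was at 69.3 and 79.1 CPM in control, 82.2 and 89.2 with Sox11 and 77.9 and 68.4 with Sox11K91A and was not called (adjusted p = 0.333 and 0.944). The glycine receptor sum was 67.5 and 66.7 TPM in control, 105 and 141 with Sox11, and 103 and 86.5 with Sox11K91A.

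With Sox11, the metabotropic receptors of group II rose and 2 of group III fell. Grm2 and Grm3, which form group II and lower cAMP, were at 6.8 and 4.07 and at 11.6 and 4.38 CPM in control. With Sox11, Grm2 was at 10.4 and 12.5 CPM (1.16 on the log2 scale, adjusted p = 0.037) and Grm3 at 20.3 and 26.4 CPM (1.78, adjusted p = 0.0289). With Sox11K91A, Grm2 was at 13.6 and 11.3 CPM (1.28, adjusted p = 0.0407) and Grm3 at 20.5 and 15.6 CPM (1.41, adjusted p = 0.0749). The log2 fold change of Grm3 with Sox11 was 2.41 without control replicate 1 and 1.01 without control replicate 2. Of group III, which acts largely on transmitter release, Grm4 was at 9.95 and 14.8 CPM in control, 3.13 and 2.81 with Sox11 and 2.02 and 4.15 with Sox11K91A. Grm4 was lower in every virus library, at -2.06 (SE 0.39, adjusted p = 0.0187) and -2.11 (SE 0.39, adjusted p = 0.0264) on the log2 scale. Grm8 was at 30.5 and 26.5 CPM in control, 18.3 and 10.6 with Sox11 and 16.6 and 17.7 with Sox11K91A and was called with Sox11 (-1.05, adjusted p = 0.0329) but not with Sox11K91A (-0.73, adjusted p = 0.0988).

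Exons of several called genes overlap another gene on the other strand, for 9.66% of the exonic bases of Grin2d and 9.6% of Grm2. The other group III receptor tested, Grm7, was at 39.3 and 25.3 CPM in control, 18.2 and 6.09 with Sox11 and 12.9 and 19.6 with Sox11K91A and was not called (adjusted p = 0.0556 and 0.185). Grm5, a group I receptor that raises intracellular calcium, was not called either, at 10.5 and 2.98 CPM in control, 9.03 and 13.3 with Sox11 and 10.1 and 7.3 with Sox11K91A. The delta receptor Grid1 was at 38.9 and 27.2 CPM in control, 22.7 and 22.8 with Sox11 and 26.1 and 25.7 with Sox11K91A (adjusted p = 0.118 and 0.333). The other receptor genes that passed the filter but were not called with either virus included Grin2c at 1.5 and 0.856 CPM in control, 0.946 and 0.362 with Sox11 and 0.621 and 0.411 with Sox11K91A, Gabra4 at 5.08 and 1.79 CPM in control, 3.38 and 1.75 with Sox11 and 2.45 and 3.33 with Sox11K91A, and Gabre and Gabrr2, which stayed below 1 CPM in all 6 libraries. Over all 44 genes, both Sox11 libraries lay above both controls for 14 (31.8%, background 30.9%) and below both for 20 (45.5%, background 30.6%). For Sox11K91A these were 12 (27.3%, background 31.2%) and 21 (47.7%, background 30.7%). Replicates of the receptor genes differed more than those of all genes tested, with a median absolute log2 difference of 0.595 against 0.34 in control, 0.64 against 0.26 with Sox11 and 0.41 against 0.16 with Sox11K91A. Summed over all 50 genes, receptor levels were 1140 and 841 TPM in control, 969 and 932 with Sox11, and 889 and 921 with Sox11K91A, and the groups overlapped.

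Pairs known from neuronal maturation were also set side by side as shares. The share of Grin2b in Grin2a and Grin2b was 52.9 and 93.1% of TPM in control, 88.5 and 98.9% with Sox11, and 95.6 and 87.5% with Sox11K91A, and the groups overlapped. Glra2 held 98.1 and 96.7% of Glra1 and Glra2 in control, 99.3 and 100% with Sox11, and 99.8 and 98.2% with Sox11K91A. The exporter Slc12a5 was at 227 and 147 CPM in control, 63.9 and 46.3 with Sox11 and 48.3 and 74.2 with Sox11K91A, at -1.75 (SE 0.30, adjusted p = 0.0154) and -1.61 (SE 0.29, adjusted p = 0.0259) on the log2 scale. The importer Slc12a2 was at 30.6 and 24.5 CPM in control, 28.6 and 33.7 with Sox11 and 27.3 and 28.1 with Sox11K91A and was not called (adjusted p = 0.44 and 0.932). Slc12a5 made up 89.9% ± 0.133 of the summed TPM of both transporters in control, 69.3% ± 7.38 with Sox11 and 73.2% ± 6.04 with Sox11K91A.

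A list of 76 genes that anchor the receptors, edit their RNA or handle their transmitters was examined in the same fit, and 75 were tested. Over all genes tested, 9.96% were called higher and 10.2% lower with Sox11, and 5.81% and 4.81% with Sox11K91A. Of the 75, Sox11 called 22 (4 higher and 18 lower), where 20.1% of all genes were called. Sox11K91A called 15 of the 75 (3 higher and 12 lower), where 10.6% of all genes were called. None was called between Sox11K91A and Sox11 in limma-voom (0 had an unadjusted p under 0.05, and edgeR and DESeq2 called none). Without Sox11 replicate 2, none of the 75 was called with Sox11 (20 at an unadjusted p under 0.05), and without control replicate 2 or Sox11K91A replicate 1 none was called with Sox11K91A (44 and 16), all in limma-voom. Without Sox11K91A replicate 1 or 2, 14 were called with Sox11. Without control replicate 1 the calls were more even, and 10 were higher and 12 lower with Sox11, and 8 and 11 with Sox11K91A. Among excitatory scaffolds and organisers, 6 of 24 fell and 1 rose with Sox11. The neuronal pentraxins Nptx1 and Nptx2, secreted proteins that cluster AMPA receptors, fell most. Nptx1 was at 202 and 181 CPM in control, 45.9 and 24.1 with Sox11 and 32.5 and 55.5 with Sox11K91A, at -2.54 (adjusted p = 0.0121) and -2.17 (adjusted p = 0.0199) on the log2 scale. Nptx2 was at 129.7 and 254 CPM in control, 33.2 and 26.3 with Sox11 and 30.1 and 37.5 with Sox11K91A, at -2.62 (adjusted p = 0.0115) and -2.43 (adjusted p = 0.0162). Homer3, which links group I receptors to calcium stores, rose from 14.6 and 20.4 CPM to 42.0 and 53.9 and 50.5 and 44.4 (1.45, adjusted p = 0.013, and 1.43, adjusted p = 0.0199).

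Of the 13 auxiliary subunits of AMPA and kainate receptors, Cacng3 and Neto1 fell and Neto2 rose with both viruses, and Cacng8 fell with Sox11. Cacng3, which carries AMPA receptors to the membrane, was at 36.7 and 32.8 CPM in control, 16.6 and 15.9 with Sox11 and 15.1 and 18.5 with Sox11K91A (-1.09, adjusted p = 0.0135, and -1.05, adjusted p = 0.0208). Among 12 inhibitory scaffolds and organisers, Hap1, which carries GABA-A receptors along microtubules, was at 106 and 138 CPM in control, 44.7 and 30.2 with Sox11 and 37.1 and 47.3 with Sox11K91A and fell (-1.73, adjusted p = 0.0122, and -1.54, adjusted p = 0.0199). Nlgn2 fell with Sox11. The editing enzymes Adarb1 and Adar were not called, and Adarb1 was at 361 and 201 CPM in control, 309.9 and 188 with Sox11 and 257 and 295 with Sox11K91A.

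Of 13 genes that handle glutamate, Glul rose and Slc17a6, Gls2, Slc1a6 and Slc1a7 fell with both viruses. Glul, the enzyme that turns glutamate into glutamine, was at 105 and 97.2 CPM in control, 271 and 296 with Sox11 and 310.2 and 267 with Sox11K91A (1.49, adjusted p = 0.0083, and 1.51, adjusted p = 0.0094). Glul is also a marker of Müller glia and astrocytes, and of the 8 markers examined for these cells 5 had more than 3 counts in every library. The summed level of the 7 without Glul was 8.47 and 13.8 TPM in control, 5.88 and 11.1 with Sox11, and 11.8 and 7.85 with Sox11K91A, with overlapping groups. Apoe stood at 4.46 to 8.25 TPM, Aqp4 at 0 to 0.10 TPM and Gfap at 0. Aldh1l1 (0.88 and 1.00 on the log2 scale) and Rlbp1 (-2.51 and -2.70) were not called. Gls2, a glutaminase, was at 14.1 and 12.8 CPM in control, 5.86 and 3.56 with Sox11 and 3.72 and 6.28 with Sox11K91A (-1.56, adjusted p = 0.0227, and -1.47, adjusted p = 0.0357). Slc6a9, a glycine transporter that amacrine cells also use, was at 27.6 and 17.5 CPM in control, 6.92 and 3.62 with Sox11 and 5.34 and 7.79 with Sox11K91A (-2.13, adjusted p = 0.018, and -1.75, adjusted p = 0.0338). Of the 9 tested genes that handle GABA and glycine, Slc6a9 and Slc6a12 fell with both viruses and none rose.

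**Figure D5:**
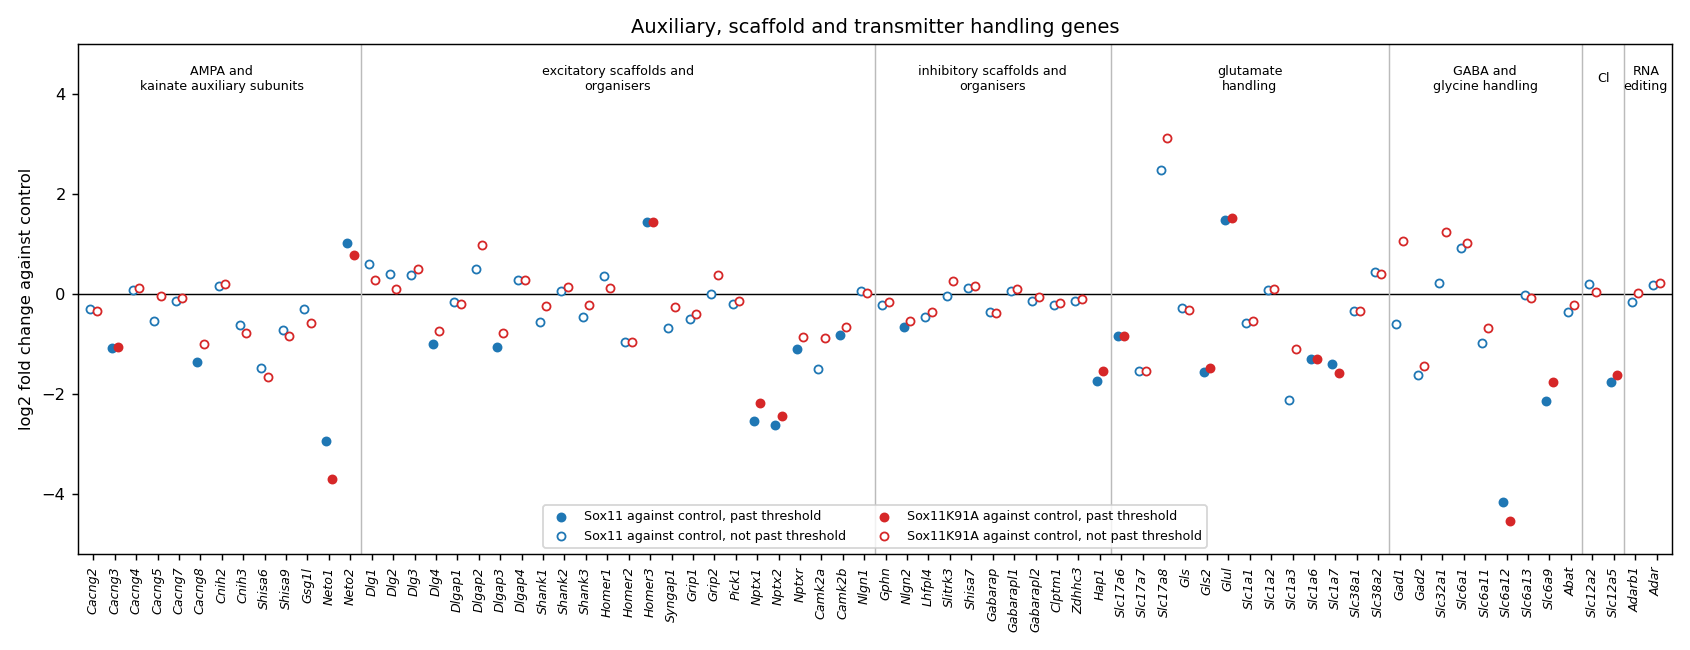
Log2 fold change against control for 74 of the 75 tested genes that anchor receptors, edit their RNA or handle transmitters, grouped by list (Cl, the chloride transporters), with Sox11 in blue, Sox11K91A in red and filled points for called genes. Called genes lie mostly below 0, with 18 lower and 3 higher for Sox11 among those drawn in the fit of all 6 libraries. Over all genes tested, 10.2% were called lower and 9.96% higher with Sox11.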

How the data were processed

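RNA-seq libraries of cultured mouse RGCs were grouped by the virus named in their labels, with 2 replicates per group. Reads were mapped to mm10 by the authors with STAR, and RSEM gave a value for each gene. The versions of both, the annotation and whether strand was used are not given in the sources used here. The deposited tables hold expected counts, which are estimated and not normalized. They also hold TPM values, which the authors obtained from RSEM and which are corrected for gene length and add up to a fixed total per library. GENCODE M21 (GRCm38) gave symbols and coordinates and named 42462 of the 43346 genes.

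Expected counts were rounded. Low genes were removed by filterByExpr (edgeR 4.0.16) with the 3 groups, and library sizes were scaled by TMM. The 15747 genes kept entered limma-voom (limma 3.58.1 in R 4.3.3) in 1 fit of the 6 libraries. Every adjusted p-value is two-sided, from limma-voom, and adjusted by Benjamini-Hochberg over these 15747 genes. Totals of 27521981 to 37061718 counts limit precision for genes with few counts. SEs, intervals and p-values from limma-voom rest on the spread between libraries. The fits were tested on simulated data in which 200 genes were changed per comparison. That is fewer than were called with either virus against control in the real data. Recovery with more genes changed was not tested. Of 2-fold changes, they recovered 28.4% for Sox11 against control, 25.2% for Sox11K91A against control and 20.8% for Sox11K91A against Sox11. Of 4-fold changes, they recovered 76.6%, 75.8% and 65.4% in the same order. Genes given no change made up 14 of 122, 13 of 109 and 9 of 97 calls.

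The receptor families, and the lists of partner and marker genes, were chosen with earlier results of these data known; within the receptor families every gene was taken by its symbol. Any receptor gene could be named, with values in every library for those called, those of the maturation pairs, and the 3 highest by TPM of each family. Partner genes named were called ones with the largest changes of each list, with the chloride transporters. Some of these genes are not reported here and are not drawn in the plots, while counts and sums include them. SDs are over 2 libraries. Alternatives were quasi-likelihood tests in edgeR, Wald tests in DESeq2 (1.42.0), quality weights, limma-trend on log2(TPM + 1) and log2(TPM + 0.1), other scalings, filters and fold thresholds, unrounded counts, fits of 2 groups, a replicate block, a term for or removal of the libraries that stood apart, and removal of each library in turn. Plots used matplotlib 3.10.9.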

Additional observations from a re-analysis of the deposited data

How the results depend on the processing

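No called gene's log2 fold change reversed in any of the alternatives run for it, which gave 482 values for each comparison with control. Calls were less stable than directions. Of these values, 134 lost the call with Sox11, and 81 lost and 38 gained it with Sox11K91A. Only genes called in the reported fit could lose the call, 22 of the 23 with Sox11 and 13 with Sox11K91A. Only the others could gain it. With Sox11, Gria2, Gria3, Glra2 and Grin2d kept the call in 20 of 21 alternatives. Grin1, Grik1 and Grm8 kept it in 11, Grm2 in 10 and Grik2 in 8 of 21, and Glra3 in 8 of 20. With Sox11K91A, Gria3 kept the call in 19 of 21, Grin2b in 11 and Gria4 in 8. With 2 libraries per group, each call rests on a spread taken from few libraries, and genes with few counts, such as Glra3, could not be followed closely.

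Receptor genes called with Sox11, 22 in the reported fit, were 13 by edgeR, 8 with sample quality weights, 10 by limma-trend on log2(TPM + 1), 10 on log2(TPM + 0.1) and 14 in a fit of only these 2 groups. With Sox11K91A, 13 in the reported fit, they were 4 and 3 on log2(TPM + 1) and log2(TPM + 0.1), 31 without control replicate 2 and Sox11 replicate 2, and 24 with a term for these 2 libraries. Leaving out each library in turn gave 0 to 19 receptor genes with Sox11, with 0 without Sox11 replicate 2, and 0 to 14 with Sox11K91A, with 0 without control replicate 2 or Sox11K91A replicate 1. Partner genes called with Sox11, 22 in the reported fit, were 12 with quality weights, 14 and 13 on log2(TPM + 1) and log2(TPM + 0.1), 13 in the fit of 2 groups and 35 with the term. With Sox11K91A, 15 in the reported fit, they were 26 by DESeq2, 9 on log2(TPM + 0.1), 42 without both libraries and 31 with the term. Leaving out each library gave 0 to 24 partner genes with Sox11 and 0 to 19 with Sox11K91A. Between Sox11K91A and Sox11, limma-voom called 0 receptor and 0 partner genes in the reported fit and without any single library. Where 1 library was left out, the remaining library of its group was assumed to vary like those of the other groups. Without both libraries that stood apart, the spread was taken from Sox11K91A alone. The causes were not tested. Of 43 shares, which include those of the chloride transporters, 30 did not overlap between Sox11 and control, on the TPM scale and over counts alike. Shares of a set depend on each other and several genes enter more than 1 set, so these are not separate results. Of all genes tested, both Sox11 libraries lay above both controls for 30.9% and below both for 30.6%.

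Over all genes tested, 3171 were called with Sox11 in the reported fit, 979 with quality weights, 1598 in the fit of 2 groups and 0 without Sox11 replicate 2. With Sox11K91A 1672 were called in the reported fit, 3144 by DESeq2, 4108 without both libraries, 0 without control replicate 2, 19 without Sox11K91A replicate 1 and 319 without Sox11K91A replicate 2.

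The replicate numbers were not taken to pair the samples, since no source used here says that they mark a shared preparation. With only 2 pairs, deviations of same-numbered libraries correlated at 0.26 for Sox11 and control, -0.04 for Sox11K91A and control and -0.28 for Sox11K91A and Sox11. With the replicate number as a block, 22 receptor and 25 partner genes were called with Sox11, 11 and 16 with Sox11K91A, and 0 and 0 between the viruses. With the numbers of the Sox11K91A libraries exchanged in the block, chosen after seeing the data, these were 30 and 31, 25 and 28, and 0 and 0.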
